A study of Homo sapiens with 4 samples.

Results

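A small class of regions in human embryonic stem cells had high methylation in both primed libraries and low methylation in both naive libraries of the study. They were 486 autosomal 1 kb tiles among 9963 tiles that stood at 80% or above in both primed libraries, or 4.88% of them, and among 19748 autosomal tiles in all. A tile was a fixed window of 1000 bases with at least 5 cytosines covered by at least 10 reads in each of the 4 libraries, and its level was the mean over these cytosines of methylated reads over all reads. The 486 tiles, called deeply demethylated tiles here, had to be at or above 80% in each primed library and at or below 40% in each naive library. The other 9477 primed-high tiles served for comparison. The primed and naive levels of the deeply demethylated tiles are therefore what chose them, and they are given as a description only.

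Captured DNA was bisulfite sequenced in 4 libraries of H9, a long-established line of human embryonic stem cells. WT primed was wild-type H9 in basal medium and KO primed was the B3GALT5-/- derivative in basal medium. WT naive was wild-type H9 that 5iLAF medium had converted to naive cells, and KO naive was B3GALT5-/- H9 that 2iLAF medium had converted. B3GALT5 encodes a galactosyltransferase that builds glycosphingolipids of the cell surface. Each group held 1 library, so no difference below has a replicate check and no p-value between conditions is given. In the naive state the genotype and the medium differed together and cannot be told apart. The sources used here do not give whether the B3GALT5-/- cells were 1 clone, and no expression was measured against which the cell labels could be checked. Summed reads ran from 23916547 in WT naive to 40697882 in KO naive, and the median reads per cytosine entering the tiles were 18 and 20 in the primed and 18 and 28 in the naive libraries of WT and KO. Only cytosines with at least 1 methylated read were listed in the deposited tables, so low levels are raised by that selection.

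Primed human embryonic stem cells resemble the epiblast after implantation and carry a heavily methylated genome, whereas naive cells resemble the epiblast before implantation and carry much less methylation. CpG methylation is copied at each division by DNMT1, which UHRF1 directs to newly made DNA, is set anew by DNMT3A and DNMT3B, and is oxidised by TET enzymes. Promoters of germline genes and of many evolutionarily young repeats are held silent by methylation in most somatic cells.

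A small set of promoters shows what the deeply demethylated tiles look like at the level of the sequence. Gene starts were placed on the hg19 positions of the files by the spacing of CpGs in the RefSeq promoter sequences (GRCh38.p14), and 40 genes had a start in 37 of the tiles. The 10 shown were picked after their values were seen, for well known genes and for promoters with many measured CpGs. Each line gives the 250 bases before the start in the direction of transcription, 5′ to 3′, and capitals mark the CpGs measured with at least 10 reads in all 4 libraries. Lower-case CpGs lay outside the tied tile or were not listed with that coverage in at least 1 library. A site without a methylated read is not listed, so lower-case CpGs need not be poorly covered. DPPA3, PRDM9, MEIKIN and SPMAP1 are genes of the early embryo or germ line.
DPPA3: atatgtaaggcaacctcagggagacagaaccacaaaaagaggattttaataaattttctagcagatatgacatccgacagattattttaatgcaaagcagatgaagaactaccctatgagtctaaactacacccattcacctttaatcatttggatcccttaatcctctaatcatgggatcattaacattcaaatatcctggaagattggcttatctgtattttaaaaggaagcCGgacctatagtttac
PRDM9: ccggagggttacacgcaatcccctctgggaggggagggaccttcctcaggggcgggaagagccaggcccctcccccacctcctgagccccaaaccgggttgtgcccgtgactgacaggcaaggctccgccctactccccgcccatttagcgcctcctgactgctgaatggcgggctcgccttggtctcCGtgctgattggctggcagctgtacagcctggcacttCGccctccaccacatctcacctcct
MEIKIN: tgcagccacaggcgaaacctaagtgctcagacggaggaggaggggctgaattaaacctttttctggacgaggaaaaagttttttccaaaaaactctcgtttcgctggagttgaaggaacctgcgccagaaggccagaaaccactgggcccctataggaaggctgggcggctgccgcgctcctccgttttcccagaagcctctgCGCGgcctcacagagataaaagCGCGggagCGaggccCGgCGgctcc
SPMAP1: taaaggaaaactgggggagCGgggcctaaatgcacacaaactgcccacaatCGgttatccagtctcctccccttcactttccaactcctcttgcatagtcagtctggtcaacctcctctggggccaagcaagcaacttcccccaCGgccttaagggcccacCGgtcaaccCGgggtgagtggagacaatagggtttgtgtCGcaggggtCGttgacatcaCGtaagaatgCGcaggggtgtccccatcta

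CAT and TNF are genes of defence, against peroxide and in inflammation respectively. PCDHB8 and ZNF534 belong to the clustered protocadherins and the zinc finger genes, which are both large families of similar sequence. PRSS27 encodes a serine protease, and LINC00664 gives a long non-coding RNA.
CAT: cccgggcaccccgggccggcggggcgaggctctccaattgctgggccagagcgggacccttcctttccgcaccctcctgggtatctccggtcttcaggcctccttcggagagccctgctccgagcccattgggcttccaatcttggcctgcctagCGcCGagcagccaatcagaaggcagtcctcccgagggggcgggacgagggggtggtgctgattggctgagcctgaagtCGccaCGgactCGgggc
TNF: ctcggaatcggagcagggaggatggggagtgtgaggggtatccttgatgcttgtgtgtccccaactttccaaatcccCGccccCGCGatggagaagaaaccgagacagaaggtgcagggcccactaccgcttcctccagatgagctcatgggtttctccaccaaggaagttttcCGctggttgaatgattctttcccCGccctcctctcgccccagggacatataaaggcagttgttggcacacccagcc
PCDHB8: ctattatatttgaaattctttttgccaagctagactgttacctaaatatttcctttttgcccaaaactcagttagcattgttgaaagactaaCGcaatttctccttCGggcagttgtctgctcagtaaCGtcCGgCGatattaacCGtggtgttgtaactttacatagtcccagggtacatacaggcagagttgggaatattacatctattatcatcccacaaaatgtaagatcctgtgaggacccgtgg
ZNF534: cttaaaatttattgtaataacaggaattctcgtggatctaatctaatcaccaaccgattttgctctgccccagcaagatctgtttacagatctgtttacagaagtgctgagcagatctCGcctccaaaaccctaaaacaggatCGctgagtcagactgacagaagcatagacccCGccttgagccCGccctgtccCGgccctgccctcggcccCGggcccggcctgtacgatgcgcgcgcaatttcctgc
PRSS27: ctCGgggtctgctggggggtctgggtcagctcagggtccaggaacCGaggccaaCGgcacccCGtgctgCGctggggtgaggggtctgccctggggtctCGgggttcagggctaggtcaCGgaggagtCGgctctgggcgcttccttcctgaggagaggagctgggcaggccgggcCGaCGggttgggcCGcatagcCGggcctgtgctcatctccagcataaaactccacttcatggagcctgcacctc
LINC00664: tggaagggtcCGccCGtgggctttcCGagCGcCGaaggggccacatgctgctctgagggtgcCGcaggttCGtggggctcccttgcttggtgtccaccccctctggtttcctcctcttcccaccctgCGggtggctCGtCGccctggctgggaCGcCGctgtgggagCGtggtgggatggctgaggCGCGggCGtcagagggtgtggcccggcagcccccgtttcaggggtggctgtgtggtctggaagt

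The windows lie in hg19 at chr12:7863779-7864028 (DPPA3, plus strand), chr5:23507468-23507717 (PRDM9, plus), chr5:131281357-131281606 (MEIKIN, minus), chr17:36997692-36997941 (SPMAP1, minus) and chr11:34460231-34460480 (CAT, plus). The others are chr6:31543092-31543341 (TNF, plus), chr5:140557121-140557370 (PCDHB8, plus), chr19:52932151-52932400 (ZNF534, plus), chr16:2770226-2770475 (PRSS27, minus) and chr19:21666267-21666516 (LINC00664, plus). Each start is that of 1 RefSeq transcript, and other transcripts of the gene may start elsewhere.

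The promoter of DPPA3, which encodes a maternal factor of the early embryo and is a marker of naive cells, had only 2 CpGs in the 250 bases shown. Its 5 measured cytosines lay from 16 bases before to 47 bases after the start. They averaged 89.6% in WT primed and 94.0% in KO primed, and 17.9% in WT naive and 24.6% in KO naive. The lowest primed cytosine, at 75%, stood far above the highest naive one, at 28.9%. The cytosines had 13 to 18 reads in the primed and 24 to 49 in the naive libraries.

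PRDM9 encodes the histone methyltransferase that marks sites of meiotic recombination. Its 6 measured cytosines averaged 96.4% in WT primed, 85.0% in KO primed, 20.6% in WT naive and 32.9% in KO naive. The cytosine 62 bases before the start was at 100% in both primed libraries, at 4.76% in WT naive and at 28% in KO naive. The cytosine 25 bases before the start was at 100% in WT primed and 46.2% in KO primed over 13 reads in each. That cytosine was the only one of the 6 below 80% in a primed library.

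MEIKIN, a kinetochore factor of meiosis, had 10 measured cytosines from 47 bases before to 48 bases after its start. The WT libraries averaged 99.05% in the primed and 34.96% in the naive state, and the KO libraries 92.4% and 33.8%. The naive levels were not even along the window: in WT naive they ran from 18.2% to 66.7%, with the highest values at both ends. SPMAP1, a sperm protein gene, averaged 89.0% in WT primed, 92.1% in KO primed, 15.4% in WT naive and 38.6% in KO naive over 10 cytosines. Its lowest KO naive cytosine, at 26.8%, lay above its highest WT naive cytosine, at 24.1%.

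CAT encodes catalase, which breaks down hydrogen peroxide. Its 7 measured cytosines averaged 97.6% in WT primed, 97.4% in KO primed, 37.2% in WT naive and 29.7% in KO naive. TNF, an inflammatory cytokine, had a graded window. The 3 cytosines from 173 to 165 bases before the start stood at 41.7 to 54.5% in WT naive and 38.5 to 50% in KO naive. The cytosine 6 bases after the start, with 27 and 33 reads, was at 11.1% in WT naive and 3.03% in KO naive. Its primed levels were 70.3% and 93.8%. PRSS27 had the widest range of those shown in WT naive, and TNF in KO naive. The PRSS27 cytosines lay between 4.17% and 70.8% in WT naive and between 10% and 50% in KO naive, and those of TNF between 3.03% and 50% in KO naive. LINC00664 was measured at 16 cytosines, which averaged 90.6% and 94.3% in WT and KO primed and 24.0% and 32.8% in WT and KO naive.

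**Figure D1:**
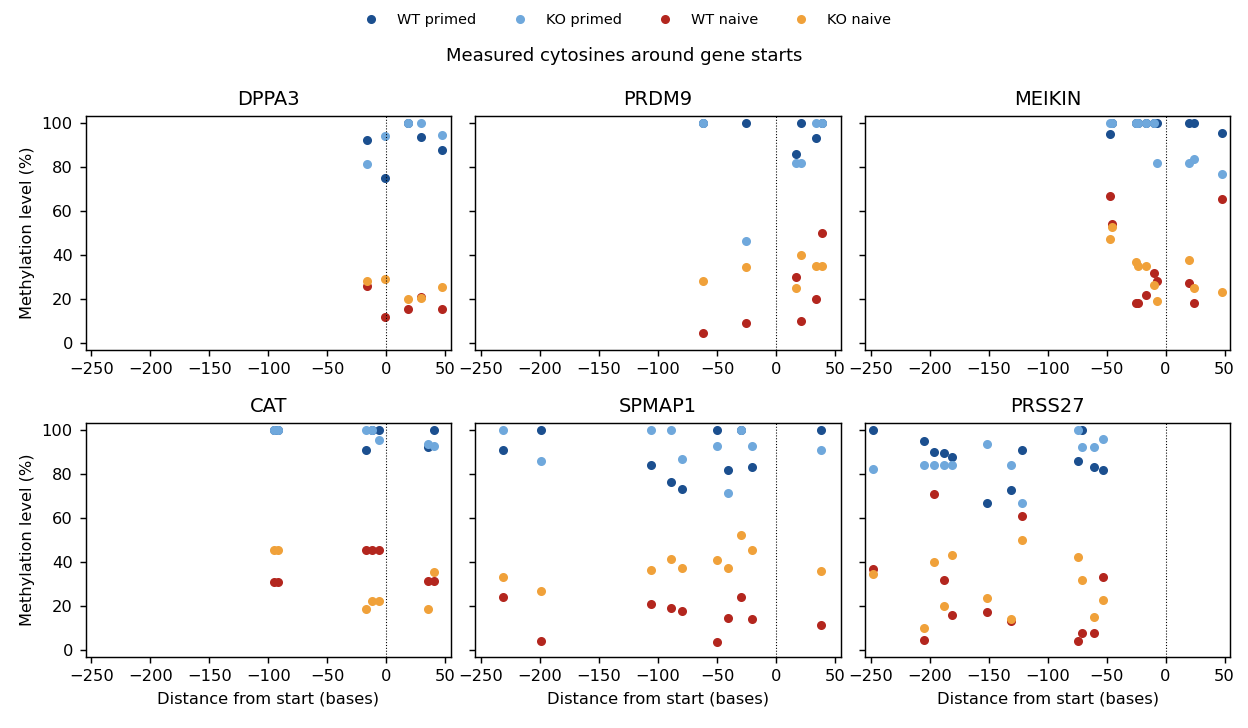
Methylation level (%) of each measured cytosine by its distance in bases from the gene start (dotted line) in 6 promoters; each point is 1 cytosine in 1 library, and colours give the 4 libraries. In DPPA3 the naive points lie at or below 28.9% and the primed points at or above 75%, while in PRSS27 the naive points spread up to 70.8%.

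Over all 486 tiles the level was 89.1% ± 5.03 in WT primed and 89.7% ± 4.92 in KO primed (mean and SD over tiles, here and below). In WT naive it was 25.01% ± 8.46, with tiles from 3.28% to 39.96%, and in KO naive 27.6% ± 8.55, with tiles from 5.29% to 39.9%. The other primed-high tiles stood at 90.8% ± 5.07 and 91.2% ± 4.90 in WT and KO primed, and at 66.1% ± 15.2 and 68.8% ± 12.4 in WT and KO naive. The primed levels of both sets were thus close, and the naive levels are what the rule separates.

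Many of the tiles lay close to the naive limit. Both naive libraries were at or below 30% in 203 tiles and at or below 20% in 57, and in 1 tile both were at or below 10%. The higher of the naive libraries lay above 35% in 163 tiles. Single naive thresholds were met more often than both together: 1034 primed-high tiles, or 10.4%, were at or below 40% in WT naive, and 635, or 6.37%, in KO naive. The member nearest the naive threshold, at chr2:3261001-3262000, had 39.96% in WT naive and 30.8% in KO naive. The nearest tile outside, at chr21:34773001-34774000, had 31.0% and 40.07%. At the primed threshold, chr1:6454001-6455000 was kept with 91.8% in WT primed and 80% in KO primed, and chr11:118599001-118600000 was left out with 79.97% and 85.9%.

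The tiles held 4566 cytosines, and nearly all of them were lower in the naive libraries. Their means are what chose the tiles, so the shares in this paragraph are a description only. The naive level was below the primed one at 99.4% of the cytosines in WT and at 99.7% in KO. In 451 of the 486 tiles every cytosine was lower in the naive library in both genotypes. Shares of lower cytosines were not computed for the other primed-high tiles. There naive minus primed averaged -24.7 points in WT and -22.4 points in KO. Cytosines at or below 20% made up 46.8% in WT naive and 35.1% in KO naive, against 3.86% and 1.26% in the other primed-high tiles. The loss was not complete, however, since 4.03% of the cytosines in WT naive and 3.85% in KO naive stayed at 60% or above. In 82 tiles every cytosine was at or below 40% in both naive libraries.

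**Figure D2:**
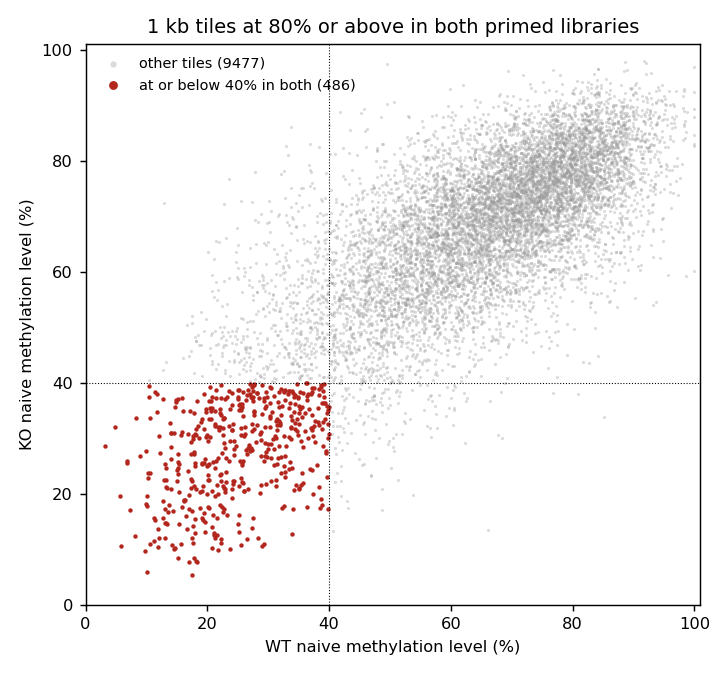
WT naive against KO naive methylation level (%) of the 9963 tiles at 80% or above in both primed libraries; each point is 1 tile, red points are the 486 at or below 40% in both naive libraries, and dotted lines mark 40%. The red points fill the corner continuously up to the dotted lines, so the tiles are the low end of a range and not a separate cloud.

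The 2 genotypes allow a reading that the choice of tiles did not use, because the WT and KO libraries are separate. Tiles were chosen on WT alone, at or above 80% in WT primed and at or below 40% in WT naive, which gave 1227 tiles (11.1% of those high in WT primed). In the KO libraries these tiles averaged 87.4% ± 8.77 in the primed and 41.1% ± 16.1 in the naive state. In KO primed 1034 of the 1227 (84.3%) were at or above 80%, and 486 met both limits in KO. Whatever the KO primed level, 582 of the 1227 tiles, or 47.4% (Wilson 95% interval 44.7 to 50.2%), were at or below 40% in KO naive. Among the 9804 tiles high in WT primed and not chosen, this share was 1.94% (1.68 to 2.23%). These intervals, like all below, cover counting error only and take tiles as independent.

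Chosen on KO alone, 872 tiles met the same thresholds (7.58% of those high in KO primed). Their level was 84.3% ± 10.7 in WT primed and 31.1% ± 13.3 in WT naive. In WT primed 635 of the 872 (72.8%) were at or above 80%, and 486 met both limits in WT. Whatever the WT primed level, 665 of the 872 tiles, or 76.3% (73.3 to 79.0%), were at or below 40% in WT naive. Among the 10635 tiles not chosen this share was 6.49% (6.04 to 6.97%). The level in the unused genotype also followed the level in the chosen one by steps. Tiles at 10 to 20% in WT naive averaged 25.6% in KO naive, those at 30 to 40% averaged 48.0%, and those at 70 to 80% averaged 73.9%. In the other direction, the tiles at 10 to 20%, 30 to 40% and 70 to 80% in KO naive averaged 22.7%, 35.6% and 71.3% in WT naive. Across the 9963 primed-high tiles the naive levels of WT and KO had a Pearson r of 0.749, and across the 486 tiles it was 0.398. These describe tiles, which share capture design and base composition between libraries and are not replicates.

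**Figure D3:**
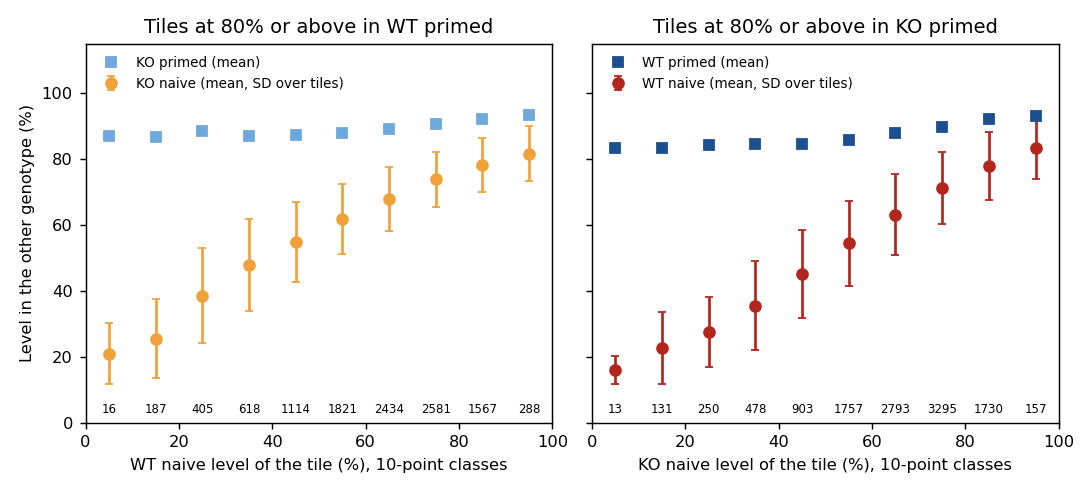
Level (%) in the genotype not used for the choice, by 10-point classes of the naive level in the genotype used; circles are naive means with SD over tiles, squares are primed means, and the numbers along the bottom are tiles per class. The naive level of the unused genotype rises from class to class in both panels while its primed level stays above 80%.

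A second reading came from cytosines in the same tiles that fell short of 10 reads in some library, and so were not part of the rule, but had at least 10 in the library read. In the deeply demethylated tiles 2241 such cytosines averaged 31.2% in WT naive and 4886 averaged 30.02% in KO naive. The corresponding primed levels were 81.8% in both genotypes, over 2608 and 3049 cytosines. In the other primed-high tiles the unused cytosines stood at 65.0% in WT naive and 67.6% in KO naive. Their primed levels there were 88.3% in WT and 88.7% in KO. On unused cytosines the deeply demethylated tiles were thus also lower in the primed libraries. The unused cytosines come from the same libraries and often from the same reads as the cytosines of the rule.

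Cytosines that the naive libraries did not list at all also accumulated in these tiles. Of 5903 cytosines with at least 10 reads in both primed libraries, 878 (14.9%, 13.99 to 15.8%) were unlisted in WT naive, and 258 (4.37%, 3.88 to 4.92%) in KO naive. In the other primed-high tiles the shares were 1.28% and 0.173% of 118084. A site is unlisted where it has no coverage or no methylated read, and these cannot be told apart. In the primed libraries 0.644% (WT) and 0.613% (KO) of 6363 cytosines were unlisted, taken over those with at least 10 reads in both naive libraries. Unlisted sites are not part of any level above. CpGs measured on both strands, 314 in the tiles, had 27.2% on the plus and 24.0% on the minus strand in WT naive, and 32.3% and 29.7% in KO naive.

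Naive levels were also low in many tiles next to the members, some of which were members themselves. Neighbouring tiles were read where they had at least 3 cytosines, fewer than the 5 of the rule. Adjacent ones that were themselves high in both primed libraries stood at 38.3% ± 19.1 in WT naive and 43.2% ± 18.6 in KO naive (86 neighbours at 1 kb). At 2 kb the levels were 51.9% and 55.04% over 65 neighbours, and at 5 kb they were 62.6% and 63.7% over 32. Neighbours of the other primed-high tiles stood at 67.6% in WT naive and 70.5% in KO naive at 1 kb. At 1 kb 29 of the 86 neighbours (33.7%, 24.6 to 44.2%) were also at or below 40% in both naive libraries, against 55 of 2084 (2.64%, 2.03 to 3.42%) around other tiles. With at least 5 cytosines per neighbour, a setting added after seeing the data, the counts were 13 of 49 (26.5%) and 35 of 1545 (2.27%). These 13 and 35 neighbours are themselves among the 486 tiles that the rule chose. They are also part of the counts at 1 kb above, so those are not a reading apart from the rule. Levels thus approached those around other tiles within about 5 kb. Neighbours at 1 kb can share captured fragments with the tile.

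**Figure D4:**
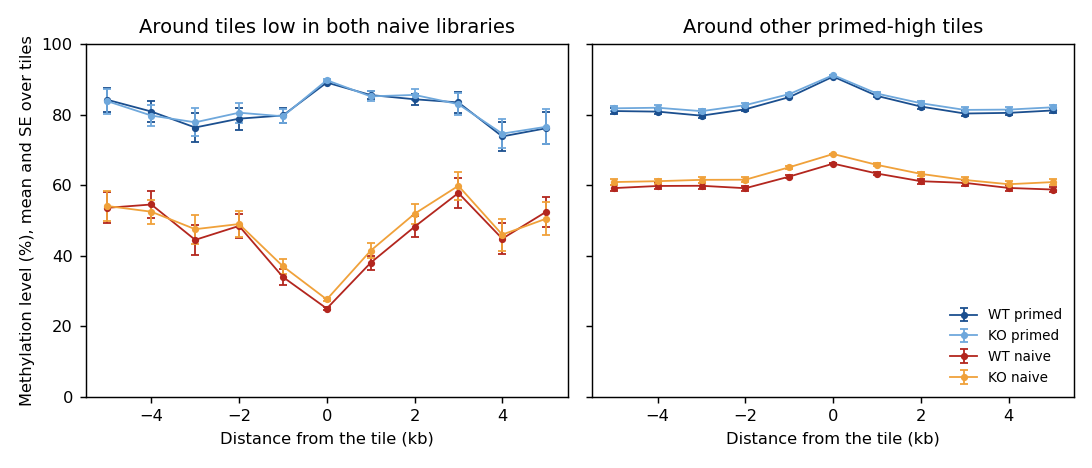
Mean methylation level (%) with SE over tiles, by distance in kb, around the 486 deeply demethylated tiles (left) and the other primed-high tiles (right) in the 4 libraries; all neighbouring tiles with at least 3 cytosines are included, whatever their primed level, and distance 0 is the tile the rule chose. On the left both naive lines are lowest at the chosen tile and lie higher at all other distances, without a steady rise. On the right they are highest at distance 0.

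Few members had an adjacent tile with enough cytosines, and 6 runs of adjacent members held 13 tiles. The longest run covered 3 tiles at chr13:47040001-47043000, where 26 cytosines averaged 86.9% in WT primed, 85.6% in KO primed, 18.0% in WT naive and 13.1% in KO naive. Within distances of 100 kb between members, the largest group lay at chr5:140165001-140265000, in the alpha cluster of the clustered protocadherins, neuronal adhesion genes whose variable exons are arrayed one after another. It held 6 members, and the placed starts in it were those of PCDHA6, PCDHA7, PCDHA10, PCDHA11 and PCDHA12. These 6 tiles averaged 93.4% in WT primed, 92.2% in KO primed, 28.3% in WT naive and 32.2% in KO naive.

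The other 18 primed-high tiles of that stretch averaged 55.2% in WT naive (20.8 to 80.3%) and 60.7% in KO naive (42.5 to 79.3%). Low and high tiles could be adjacent there. The tile at chr5:140214001-140215000 was at 23.5% in WT naive and 25.8% in KO naive over 25 cytosines, and the tile after it at 76.1% and 75.5% over 31. Low naive levels were not limited to members. In the same stretch 14 tiles that were not primed-high averaged 54.8% in WT primed, 49.8% in KO primed, 19.4% in WT naive and 20.9% in KO naive. A further 3 members lay at chr5:140723001-140801000 among starts of the gamma cluster (PCDHGB1 to PCDHGA11), at 20.7% in WT naive and 21.0% in KO naive, against 51.7% and 60.8% in the 21 other primed-high tiles there. The 5 tiles there that were not primed-high averaged 17.7% in WT naive and 23.3% in KO naive. These variable exons are similar in sequence, so reads could have been placed on a neighbouring copy. How repeated matches were handled is not given in the sources used here.

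By chromosome, the share of primed-high tiles that were deeply demethylated was highest on chromosome 13, at 26 of 282 (9.22%, 6.37 to 13.2%), and chromosome 19, at 45 of 614 (7.33%, 5.52 to 9.67%). It was lowest on chromosome 21, at 2.99%. Within 2 Mb of the first or last listed position of a chromosome the share was 3.63%, and elsewhere 5.22%. Tiles with fewer than 15 listed CpGs had a share of 3.79%, and those with 15 to 29, 30 to 59 and 60 or more had 6.32%, 5.84% and 5.92%. The mean reads per cytosine in the deeply demethylated tiles were 18.7 and 20.7 in the primed and 21.5 and 32.4 in the naive libraries of WT and KO. The others had 21.0 and 23.1 in the primed and 21.1 and 31.1 in the naive ones. Their part in the choice of tiles was not tested.

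The 10 tiles with the largest decrease, among the 156 with at least 10 cytosines, lay between 86.3% and 97.4% in the primed and between 5.29% and 21.2% in the naive libraries. The first was chr19:53088001-53089000, 14.5 kb from the start of ZNF701, a zinc finger gene. Over 15 cytosines its level was 94.6% ± 7.23 in WT primed, 96.8% ± 6.66 in KO primed, 17.4% ± 4.38 in WT naive and 5.29% ± 2.70 in KO naive (SD over cytosines). KO naive was thus the lower of the naive libraries there. The second, chr22:46008001-46009000, had nearly equal naive levels of 12.0% in WT and 12.1% in KO over 13 cytosines. The next, chr4:640001-641000, lies between a pair of placed starts of PDE6B, a phosphodiesterase of the photoreceptors, 20.6 kb after one and 4.74 kb before the other, and stood at 9.86% in WT naive and 18.1% in KO naive.

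The remaining ones were spread over 6 chromosomes. The tile at chr19:1440001-1441000, 9.12 kb from the start of APC2, a relative of the tumour suppressor APC, had 91.0% and 88.8% in WT and KO primed and 12.8% and 15.6% in WT and KO naive over 22 cytosines. The tile at chr19:17972001-17973000 lies between the starts of JAK3, a kinase of cytokine receptors, and SLC5A5, the iodide transporter, and had 19.2% in WT naive and 15.7% in KO naive. At chr16:1544001-1545000 both naive libraries were near 11% (11.2% in WT and 11.5% in KO), from 86.6% and 86.4% in the primed ones. The tiles at chr8:1796001-1797000, chr13:113420001-113421000, chr3:155394001-155395000 and chr6:158375001-158376000 had naive levels from 12.0% to 21.2%.

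Within the deeply demethylated tiles the KO naive level was on average 2.58 points above WT naive, with an SD of 9.33 points over tiles. It was the higher in 296 of 486 tiles (60.9%, 56.5 to 65.1%), close to the 58.4% of the other primed-high tiles. The naive libraries were within 10 points of each other in 69.1% of the tiles. KO naive exceeded WT naive most at chr4:7647001-7648000, with 10.5% ± 5.41 in WT and 39.4% ± 8.58 in KO over 10 cytosines. At chr3:181413001-181414000, with 30 cytosines, the levels were 10.5% in WT naive and 33.7% in KO naive, and at chr10:134778001-134779000 they were 14.8% and 37.0%. In these 3 tiles the KO primed level was also the higher, by a smaller margin. KO naive was furthest below WT naive at chr11:69587001-69588000, with 38.5% ± 13.1 in WT and 17.3% ± 7.46 in KO over 11 cytosines. It was also below at chr7:76129001-76130000 (39.7% and 23.001%) and at chr4:79642001-79643000 (28.3% and 12.0%).

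Gene starts could be tied to 37 of the deeply demethylated tiles outside chromosome 8 (465 tiles, 7.96%), and to 346 of 9017 other primed-high tiles (3.84%). Read the other way, 9.66% (7.09 to 13.03%) of the 383 primed-high tiles tied to a placed start were deeply demethylated, against 4.88% of all primed-high tiles. A start could be placed only where enough of its CpGs were listed, so most genes could not be tied to a tile, and this selection was not corrected for. The deeply demethylated tiles tied to a start had mean levels close to those of all 486, at 26.3% in WT naive and 28.8% in KO naive. In the 364 ties of starts to other primed-high tiles the means were 62.1% and 64.5%.

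Of the 40 genes, 4 had both naive libraries at or below 20%. GSPT1, which encodes the translation release factor eRF3a, had 88.8% in WT primed, 86.0% in KO primed, 13.4% in WT naive and 14.5% in KO naive over 8 cytosines. SERPINB6, an intracellular protease inhibitor, had 92.5%, 84.9%, 19.6% and 14.95% in the same order over 5 cytosines. ZDHHC11, a palmitoyltransferase, stood at 16.4% in WT naive and 18.95% in KO naive. NINJ2, an adhesion protein of the nerve whose start lay outside the tied tile, stood at 18.0% and 15.4%. In all 4 tiles the naive libraries were within 5 points of each other, as they were for 16 of the 40 genes. In the start windows alone KO primed averaged 77.6% for GSPT1 and 77.4% for SERPINB6, both below 80%. It averaged 89.9% for ZDHHC11 and 90.7% for NINJ2 there.

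Genes known for a role in the germ line or the early embryo were spread over the order of decrease. Of 40, DPPA3 was at 6, PRDM9 at 9 and SPMAP1 at 17, and NUP210L, MEIKIN and CATSPERT were at 24, 25 and 30. The tile at the start of DPPA3 had 87.4% ± 9.91 in WT primed, 94.97% ± 7.28 in KO primed, 21.3% ± 9.72 in WT naive and 24.7% ± 3.77 in KO naive over 6 cytosines. That of PRDM9 had 96.9%, 88.5%, 19.7% and 30.2% over 13. Chosen after their values were seen, MEIKIN had 35.2% in both naive libraries from 97.9% and 91.6% over 14 cytosines, and NUP210L, a nucleoporin gene of the testis, had 32.6% in WT naive and 17.8% in KO naive. At the start of NUP210L itself 5 cytosines averaged only 68% in WT primed, and 82.6% in KO primed, 38.2% in WT naive and 9.23% in KO naive. CATSPERT, whose product belongs to the calcium channel of the sperm tail, had 37.5% in WT naive and 32.2% in KO naive over 16 cytosines. These were picked by known role from the 40 and do not show that such genes are more frequent among the tiles.

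Genes with roles in general metabolism and elsewhere had similar values. The CAT tile had 97.9% in WT primed, 95.8% in KO primed, 31.0% in WT naive and 28.0% in KO naive over 18 cytosines. PXMP4, a peroxisomal membrane protein, had 17.1% in WT naive and 34.9% in KO naive, from 89.1% and 87.6%. CLRN1, a gene of hearing and sight whose start shares its tile with that of its antisense RNA CLRN1-AS1, had 24.2% and 22.2% in WT and KO naive. TUSC1, named as a candidate tumour suppressor, had 15.1% and 27.1%, and CCDC144A had 21.9% and 31.5% over 19 cytosines. CCDC144A has near-identical copies in the genome, so the place of its reads is uncertain.

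The PCDHB8 tile, in the beta cluster of the protocadherins, had 28.9% in WT naive and 26.7% in KO naive. Among non-coding RNAs, LINC00664 had 25.5% and 30.6% over 21 cytosines. LINC01166 and LINC01168, which are tied to the same tile and run in opposite directions, had 14.8% and 37.0%. SPMAP1 shares its tile with LOC124903994 and had 14.6% and 35.7%. The uncharacterised LOC124902117 had 26.0% and 20.5%, and LOC107984912 had 23.8% and 9.96%. In 8 of the 37 tiles KO naive was at least 10 points above WT naive, and in 4 it was at least 10 points below.

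**Figure D5:**
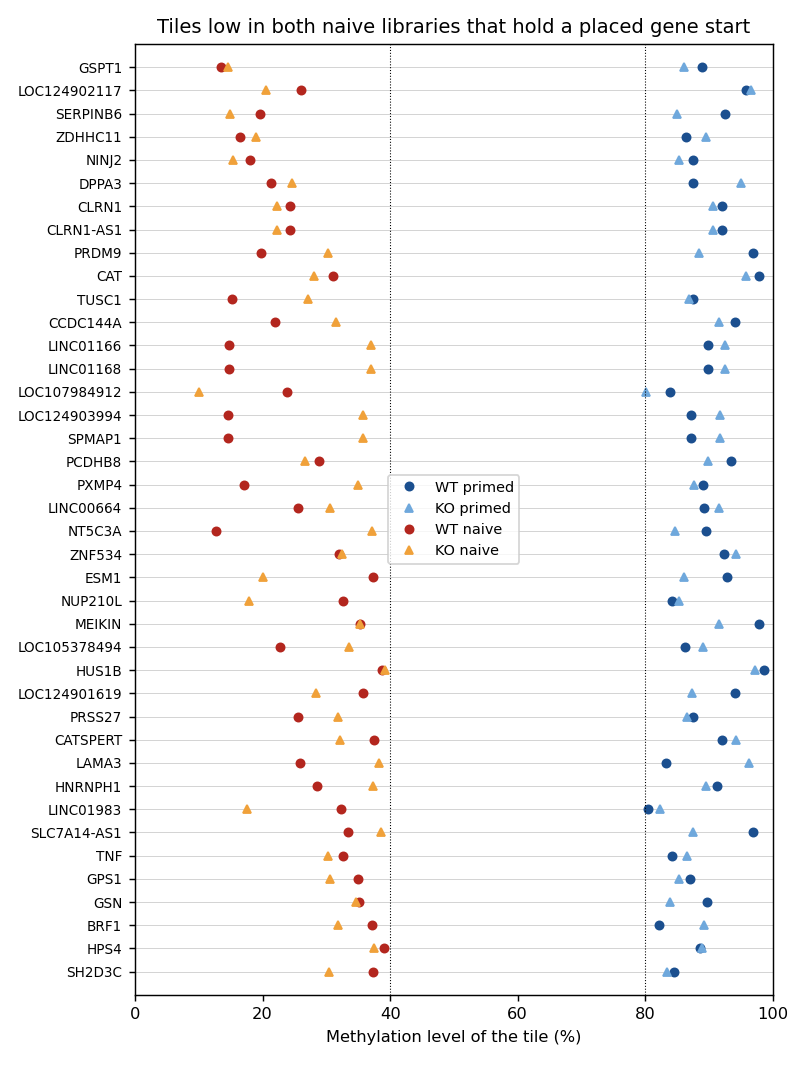
Methylation level (%) of the tile tied to each of the 40 placed gene starts in the 4 libraries (circles WT, triangles KO, blue primed, red and orange naive), ordered by the decrease. Dotted lines mark the 40% and 80% thresholds. LINC01166 and SPMAP1 have the naive libraries far apart, and GSPT1 and DPPA3 have them close together.

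Gene lists were read for how many of their genes fell in these tiles. Of 11 markers of naive cells, 3 could be placed and 1, DPPA3, lay in a deeply demethylated tile. Over all 4177 genes with a placed start, 40 (0.958%) were tied to one. Counts of 0 or 1 among so few placed genes therefore set no list apart. Of 20 germline genes 16 were placed and none lay in one, but 2 had a primed-high tile. MAEL, which guards the germ line against transposons, had 90.8% in WT primed, 94.8% in KO primed, 39.2% in WT naive and 65.8% in KO naive. TDRD1, of the same pathway, had 94.1%, 90.4%, 45.9% and 40.3%. Its KO naive level was just above the naive limit and its WT naive level further above it. Of the 9 trophoblast regulators 1 was placed, and of the 8 markers of primed cells 3, none of them in a tile that entered the comparison.

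The sequences at the starts differed little from those of other primed-high tiles in composition. In the 300 bases from 250 before to 50 after the start, the 40 starts had 13.7 ± 5.81 CpGs and 55.9% G and C, and the 354 starts of other primed-high tiles 12.6 ± 6.15 and 55.5%. The 34796 distinct sequences of the whole table had 16.8 CpGs and 57.5%. Both strands were searched for 4 motifs. GCCNNNGGC, the core bound by AP-2 factors, was in 5 of the 40 (12.5%, 5.46 to 26.1%), in 19.5% of the other primed-high starts and in 23.2% of all sequences. GGGCGG, the GC box, was in 35%, 29.7% and 44.9%, and TGCCGC in 20%, 16.4% and 16.7%. CACGTG was in none of the 40, which allows a share of up to 8.76% by the Wilson interval, and was in 9.605% and 7.205% of the others. A match is a string of letters and was not taken as a bound site.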

How the data were processed

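Genomic DNA of 4 H9 libraries was captured and bisulfite sequenced, per the labels' protocols. Per the submitters' processing notes, positions are on hg19 (GRCh37). Which aligner and caller were run, and how duplicates were treated, is not given in the sources used here. Each library has a table in which the authors deposited per-cytosine raw read counts (total, context and methylated coverage) and the methylation level as a fraction, per the file headers; levels here are methylated over context coverage in percent. No deposited row had 0 methylated reads, and 82.3 to 83.9% of rows lay on the minus strand.

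Tiles, the thresholds and the libraries' groups followed the rule stated in the results. The members and gene lists were chosen with earlier results of these data known. Tiles named were the 10 with the largest decrease, the 3 with the largest KO-minus-WT naive difference each way (at least 10 cytosines each), the longest run, those nearest each threshold, the 20 gene starts with the largest decrease, and list genes. Shares carry Wilson 95% intervals, and no test between groups was possible with 1 library per group.

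An hg19 annotation was not used here. Promoter sequences of RefSeq (GRCh38.p14, 300 bases) with at least 6 CpGs (23292 of 35116) were placed where every listed CpG of the window fell on a CpG of the sequence, with at least 6 matched and a chance limit of 0.01 that was set after placements were seen. Of 4684 placed at 1 place, 4672 (99.7%) lay on the chromosome of the table, and only these were used. A tile was tied to a gene where at least 3 of its cytosines lay in the window. Sequences of chromosome 8 were not used here. The rule and the placement were also run on simulated data as a check of the code. Simulated levels were flat within a tile and every CpG of a sequence was listed, unlike in the real data. No conclusion is drawn from that check. Python 3.11.15, numpy 2.4.6, pandas 2.3.3, scipy 1.17.1 and numba 0.67.0 were used.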

Additional observations from a re-analysis of the deposited data

How the results depend on the processing

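The number of tiles, 486 as reported, was 1010 with at least 5 reads per cytosine, 64 with at least 20 reads, 156 with at least 10 cytosines per tile, 203 with a naive limit of 30%, 1023 with one of 50%, and 123 with a primed minimum of 90%. It was 472 to 545 under the other 6 alternatives. With unlisted sites filled in at 0 methylated reads at the coverage of a neighbour within 25 bases, 545 tiles met the rule, of which 446 were among the 486. The share of tiles chosen on WT that were low in KO naive, 47.4%, became 43.2% with at least 5 reads. The share chosen on KO that were low in WT naive, 76.3%, became 65.3% with at least 5 reads, 81.0% with at least 20, 85.1% with at least 10 cytosines, 71.0% with 10 reads drawn per cytosine and 79.4% with sites filled in. The mean naive level over both libraries, 26.3%, became 27.3% and 24.7% with at least 5 and 20 reads, 26.9% with at least 10 cytosines, 25.9% pooled over reads, 26.5% with drawn reads, 24.5% with sites filled in, and 27.8% when tiles were chosen on every other cytosine and read on the rest. The cause of these shifts was not tested. Only the tile number, both shares and the mean naive level were recomputed. In every setting both shares stayed above the share over all tiles high in the same primed library.

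No paired analysis was possible because each group held 1 library and the labels carry no replicate numbers; leaving out a replicate was not possible for the same reason. With about 10 reads at the least covered cytosines a single level moves in steps of about 10 points, and levels near 0 cannot be seen at sites that were not listed.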

Other observations

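Chromosome X was outside the rule. There, 8 of 219 tiles at 80% or above in both primed libraries were at or below 40% in both naive libraries (3.65%, Wilson 95% interval 1.86 to 7.04%, counting error only).

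When the tiles were chosen on every other measured cytosine, the remaining cytosines of the same tiles gave a similar picture. Chosen on the odd-numbered cytosines, 179 tiles read 26.2% in WT naive and 29.4% in KO naive on the even-numbered ones, and 143 of them (79.9%) were at or below 40% in both, against 1.08% of the other primed-high tiles. Chosen on the even-numbered cytosines, 152 tiles read 26.0% and 29.4%, and 120 of them (78.9%) were low in both, against 1.16%. Neighbouring cytosines share reads, so these readings are not independent of the choice.

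The germline genes SYCP1, of the synaptonemal complex, and RNF17, of the male germ line, had tiles outside the primed-high class, and their primed libraries differed. The SYCP1 tile stood at 55.3% in WT primed, 93.2% in KO primed, 29.6% in WT naive and 50.4% in KO naive over 15 cytosines. The RNF17 tile stood at 76.8%, 96.5%, 90.7% and 77.1% in the same order over 5 cytosines.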
